A study of Homo sapiens with 32 samples.

Results

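A set of 107 genes was defined by its level in 4 THP-1 lines that differed in ATP-citrate lyase (ACLY). Of the 60107 genes in the deposited tables, 10392 were named and had a mean normalised count of at least 30. A gene entered the set when its mean in the ACLY knockout line (KO) and in the line carrying catalytically inactive ACLY (HA) was at most 0.6 of the mean in the line with wild-type ACLY (WT) and also of that in the line with phosphorylation-deficient ACLY (SA). All 8 of these ratios had to hold, 4 in unstimulated cells and 4 after lipopolysaccharide (LPS). BEX1, SV2A, EPHB1, AQP1, MACROD2, VAT1L, FCN1 and the AKR1C genes were set aside by name. The rule compared lines, and the difference between KO and HA on the one side and WT and SA on the other is therefore a description here, with no test. A working name for the set is genes needing ACLY activity. The chromosomal positions given below bear on that name, and the genes are called the genes lower in KO and HA, or members, throughout.

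ACLY cleaves citrate in the cytosol and nucleus and yields acetyl-CoA, from which fatty acids and cholesterol are built and acetyl groups are placed on histones. Bacterial LPS, a ligand of the receptor TLR4, switches on inflammatory genes in macrophages and monocytes. Reports on how ACLY affects these genes differ, according to the study. Histidine 760 is needed for catalysis, and serine 455 is a site at which kinases of growth factor and cAMP signalling phosphorylate the enzyme.

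THP-1 is a human monocytic leukaemia cell line. All lines shared the ACLY knockout background. The KO line lacked ACLY, and KO cells were transduced by lentivirus with wild-type ACLY (WT), ACLY H760A (HA) or ACLY S455A (SA). Whether the KO line itself received a virus is not given in the sources used here. Each genotype was 1 line, so a genotype and any other property of its line cannot be told apart, and ACLY knockout clones of these cells are known to vary. Each line was sampled untreated and after 100 ng/ml LPS for 3 h, with 4 libraries in each of the 8 groups. The study describes its data in general as independent experiments, and what separates the 4 libraries of a group (culture, day or RNA sample) is not given for the sequencing, so p-values measure the spread between these libraries only.

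RNA was read from its 3′ end. Between 6504099 and 14750815 reads per library fell on genes (median 10247620). Values are normalised counts on a scale shared by all 32 libraries, and log2 values are log2(normalised count + 1). Because reads come from the 3′ end, counts were not divided by gene length, and counts of different genes are ranked only to choose those named. Of 2 libraries that stood apart from their groups, SA after LPS replicate 1 correlated with the mean of the other 3 libraries at r = 0.711 and KO unstimulated replicate 3 at r = 0.857, whereas the other 30 libraries reached 0.908 to 0.99 over 7897 genes with a mean of at least 100. In the first of these libraries 699 of 12406 tested genes had no read, and in the second 114. Among the other 30 libraries this number reached 164, so it does not set the second apart. Counts and medians over the set are given with and without these 2 libraries. Leaving them out moved the ratio of a member, defined below, by a median of 0.008 and at most by 0.072 (GBGT1, 0.239 with and 0.312 without them).

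The targeted gene did not check the labels. ACLY had normalised counts of 117, 101, 90.7 and 97.1 in WT, 162, 158, 149 and 102 in SA, 97.5, 107, 82.4 and 67.2 in KO and 133, 81.4, 67.2 and 105 in HA. After LPS the counts were 117, 97.1, 124 and 101 in WT, 329, 100.2, 110.3 and 95.8 in SA, 68.8, 99.9, 77.8 and 60.3 in KO and 60.3, 64.8, 74.3 and 88.3 in HA. KO and WT libraries overlapped. Reads at the 3′ end do not tell an edited coding sequence from an intact one, and the introduced constructs held the coding sequence of ACLY, without the 3′ end of the native gene.

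The sequences just upstream of 5 members are shown because these genes stand for the range of the set and each had 1 listed transcription start with no annotated exon in the 250 bases before it. They are GABBR2 and DNAJC21, among the 12 members with the highest counts, and ID3, GAPT and CACNA2D3, among the 12 with the lowest ratio. Sequences and coordinates are from RefSeq on GRCh38.p14, written 5′ to 3′ on the strand of the gene. Capitals mark the words found among 13 short words searched on both strands.
GABBR2, minus strand, chr9:98708936-98709185: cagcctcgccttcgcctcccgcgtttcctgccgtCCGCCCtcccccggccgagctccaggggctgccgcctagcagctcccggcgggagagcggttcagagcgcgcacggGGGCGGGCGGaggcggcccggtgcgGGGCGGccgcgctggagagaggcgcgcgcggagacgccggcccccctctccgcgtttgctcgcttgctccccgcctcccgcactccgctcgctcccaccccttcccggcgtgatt
DNAJC21, plus strand, chr5:34929309-34929558: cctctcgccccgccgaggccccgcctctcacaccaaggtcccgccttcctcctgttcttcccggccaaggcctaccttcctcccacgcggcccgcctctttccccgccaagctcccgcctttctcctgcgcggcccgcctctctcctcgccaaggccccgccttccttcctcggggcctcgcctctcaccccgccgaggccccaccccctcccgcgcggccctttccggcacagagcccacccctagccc
ID3, minus strand, chr1:23559502-23559751: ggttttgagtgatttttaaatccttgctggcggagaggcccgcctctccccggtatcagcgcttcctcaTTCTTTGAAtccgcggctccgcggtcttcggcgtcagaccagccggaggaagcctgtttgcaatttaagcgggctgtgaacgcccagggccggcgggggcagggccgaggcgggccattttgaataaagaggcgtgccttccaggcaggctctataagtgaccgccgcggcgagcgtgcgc
GAPT, plus strand, chr5:58491185-58491434: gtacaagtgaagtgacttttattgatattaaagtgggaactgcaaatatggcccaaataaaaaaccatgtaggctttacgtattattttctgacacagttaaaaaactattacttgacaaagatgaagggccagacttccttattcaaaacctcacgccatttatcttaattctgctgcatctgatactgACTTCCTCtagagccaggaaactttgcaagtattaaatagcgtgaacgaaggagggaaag
CACNA2D3, plus strand, chr3:54122302-54122551: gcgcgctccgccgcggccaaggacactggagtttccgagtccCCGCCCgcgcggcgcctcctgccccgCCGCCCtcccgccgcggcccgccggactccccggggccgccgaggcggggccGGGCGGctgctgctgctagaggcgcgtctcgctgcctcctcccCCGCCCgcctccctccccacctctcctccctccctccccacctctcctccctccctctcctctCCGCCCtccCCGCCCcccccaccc
The GC-box word GGGCGG, counted on both strands, occurred 4 times upstream of GABBR2, where 2 copies overlap, and 6 times upstream of CACNA2D3. It is common, being held by 45.0% of the 35116 windows in the RefSeq table, each of which spans 250 bases before and 50 after a start. ID3 held TTCNNNGAA, the spacing bound by STAT factors, which 7.66% of windows hold. GAPT, a transmembrane adaptor that binds GRB2, held GAGGAAGT, an ETS word of the PU.1 type, which 2.59% of windows hold, on the other strand. DNAJC21 held none of the 13 words. The GC content of the 250 bases was 78.0% for GABBR2, 74.0% for DNAJC21, 62.0% for ID3, 36.8% for GAPT and 80.8% for CACNA2D3. Because only 82 of the 107 members matched a window, under 80% of the set, a comparison of word shares between members and other genes is void. A word in a window is a description of letters and not a bound site.

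The 107 members held 94 protein-coding genes, 9 long non-coding RNAs, 3 pseudogenes and 1 small nuclear RNA. The sum of KO and HA means over the sum of WT and SA means, unstimulated and after LPS together, ranged from 0.126 for ZNF462 to 0.580 for C5orf22, with a median of 0.396. It was under 0.3 in 16 members. The median difference between the KO and HA libraries and the WT and SA libraries was −1.34 on the log2 scale and −1.33 without the 2 libraries that stood apart. The ratios of the rule were taken on the scale of the deposited tables, which departs from the shared scale by factors of 0.874 to 1.14 depending on the line. On the shared scale 72 of the 107 met the same rule. By mean log2 level after LPS, KO was not below SA for SDHA (0.13), REXO2 (0.06) and AC026904.2 (0.48). HA was not below SA for RPL37P2 (0.11).

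In 31 members every KO and HA library was below every WT and SA library, untreated and after LPS. That held for 0.427% of the 12406 tested genes, a share beside which the count of members is only a description because the rule used the same contrast. Taken separately, 58 members were fully apart in unstimulated cells (1.41% of tested genes) and 44 after LPS (1.19% of tested genes). Without the 2 libraries that stood apart, 44 of the 107 members and 0.725% of tested genes were fully apart in the 30 remaining libraries.

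**Figure D1:**
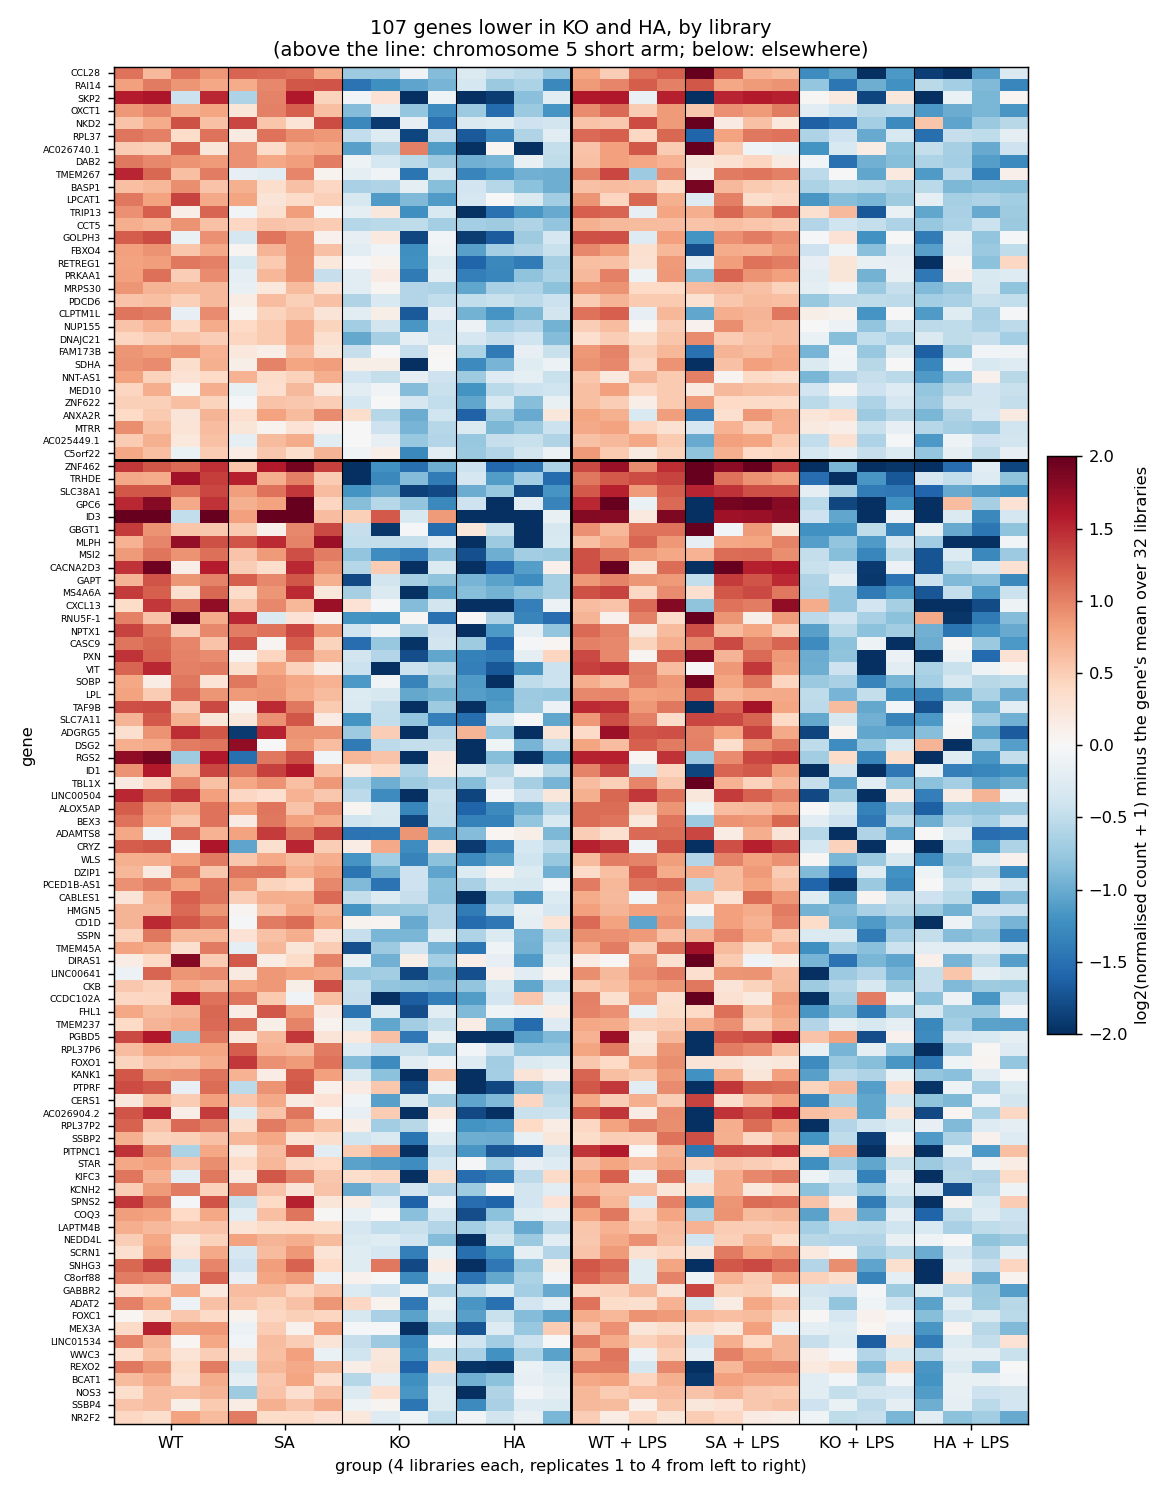
Heat map of the 107 genes lower in KO and HA (1 per line, vertical axis) in the 32 libraries (columns, 4 per group), as log2(normalised count + 1) minus the mean of the gene over the 32 libraries. WT and SA columns are mostly red and KO and HA columns mostly blue in both conditions, and the columns of KO replicate 3, HA replicate 1 and SA + LPS replicate 1 differ from their neighbours in many genes.

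The members were not spread evenly over the genome. The short arm of chromosome 5 (5p) carried 31 of the 107 members, or 29%, but only 0.78% of the genes that could enter the set. Of the 81 such genes on 5p, 38.3% were members, against 0.738% of such genes elsewhere. The other 76 members lay on 20 chromosomes, including 2, GAPT and SSBP2, on the long arm of chromosome 5. The position of a gene was not used by the rule. Of the 31 members on 5p, 16 met the rule on the shared scale, as did 72 of all 107.

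The lower level in KO and HA extended to 5p genes outside the set. Of the 97 tested genes on the arm, 93 (95.9%) were lower in KO and HA, with a median log2 difference of −0.91 and quartiles of −1.19 and −0.72. The 66 that were not members had a median of −0.78, and 62 of them were lower. The long arm of chromosome 5, with 461 tested genes, had a median of 0.01, and the medians of the 22 other nuclear chromosomes lay between −0.04 and 0.05. A ratio of KO and HA to WT and SA below 0.75 was found for 85 of the 97 genes on 5p (87.6%) and for 12.6% of tested genes elsewhere. A set of 5p genes measured together in this way shares its libraries, and genes along an arm are not replicates of a condition.

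The difference ran from the telomere to the pericentromeric gap, the longest stretch of the chromosome without a protein-coding gene. The first 10 tested genes of the arm, starting with CCDC127, had a median of −0.99 and all 10 were lower. The last 10 before the gap had a median of −1.02 and 9 were lower. The first 10 after the gap, starting with EMB, had a median of 0.11 and 3 were lower. In windows of 30 neighbouring genes, 6 of the 7 windows that touch 5p had medians of −0.96 to −0.74, the seventh lies mostly on the long arm, and the 777 windows elsewhere had medians between −0.31 and 0.31. The 4 tested 5p genes that were not lower were TRIO (0.42) and ANKH (0.45), both with low counts, SLC1A3 (0.19), a glutamate transporter, and HMGCS1 (0.17), the synthase that makes HMG-CoA from acetyl-CoA in sterol synthesis.

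**Figure D2:**
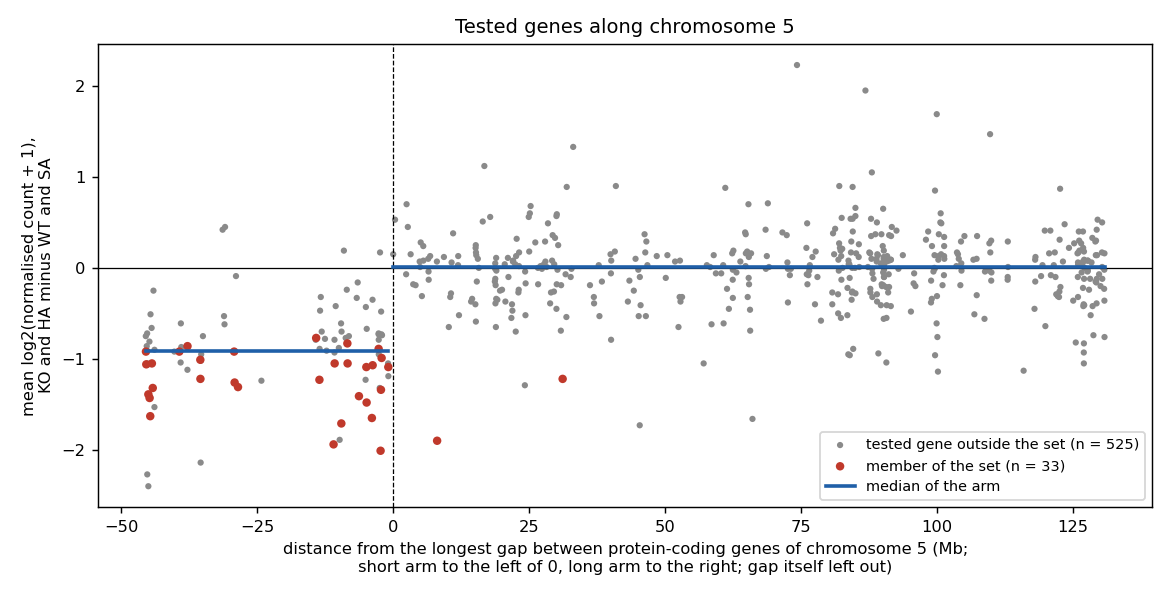
Difference in mean log2(normalised count + 1) between the KO and HA libraries and the WT and SA libraries (vertical axis) for every tested gene of chromosome 5, against distance in Mb from the longest gap between protein-coding genes (horizontal axis, short arm on the left). Red points are the 33 members on the chromosome, grey points the 525 other tested genes, and the blue lines, at −0.91 and 0.01, are the medians of the arms.

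The arm separated the libraries as the members did. In each library the median was taken over the 66 tested 5p genes outside the set, each gene relative to its mean over all libraries. It was 0.32 to 0.37 in the 4 unstimulated WT libraries and 0.28 to 0.40 in SA, and −0.39 to −0.29 in KO and −0.39 to −0.31 in HA. After LPS it was 0.35 to 0.43 in WT, 0.32 to 0.44 in SA, −0.42 to −0.34 in KO and −0.38 to −0.23 in HA. The KO and HA libraries therefore lay below the WT and SA libraries without overlap. Of the 2 libraries that stood apart, KO replicate 3 was at −0.29 and SA + LPS replicate 1 at 0.44, each the highest of its group. Without these 2 libraries the median over the 66 genes was −0.77. Medians over the 461 long arm genes lay between −0.10 and 0.14 in all 32 libraries.

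**Figure D3:**
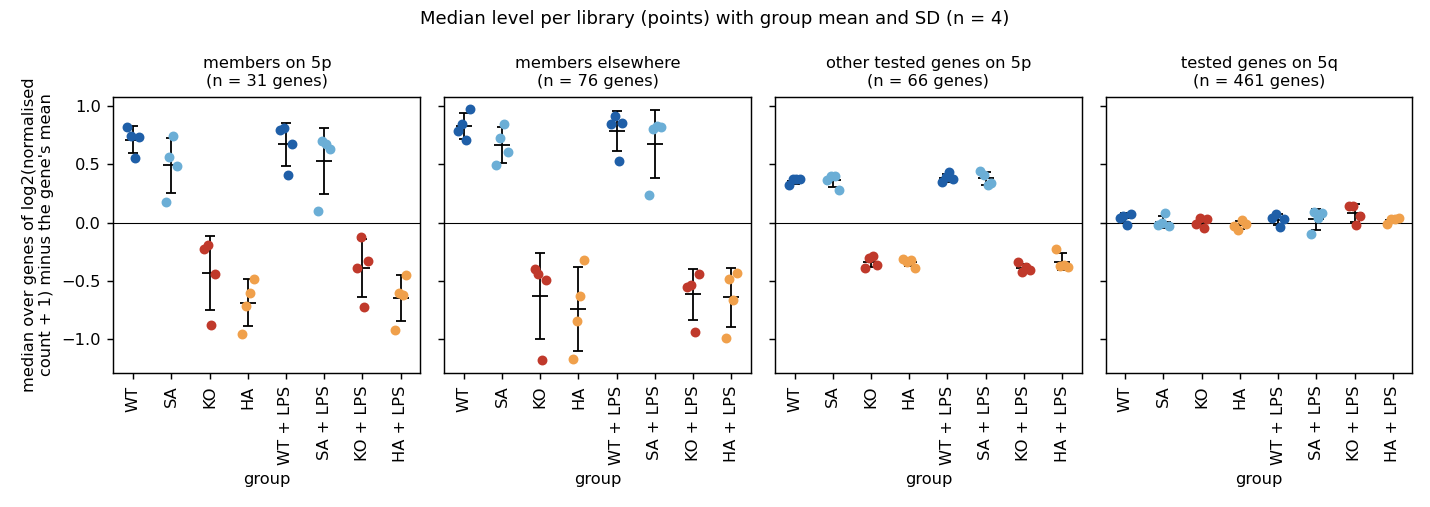
Median over genes of log2(normalised count + 1) minus the mean of each gene (vertical axis), 1 point per library, for 31 members on 5p, 76 members elsewhere, 66 other tested genes on 5p and 461 tested genes on 5q; bars are the group mean and SD (n = 4). The first 3 panels separate WT and SA from KO and HA in both conditions, and the long arm panel stays between −0.10 and 0.14.

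DNA copy number was not measured. A difference along 5p between the lines and the ACLY genotype cannot be told apart in these libraries, because each genotype is 1 line and the arm follows the grouping of WT and SA against KO and HA. The 31 members on the arm are thus described first and the 76 members elsewhere afterwards.

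Among the members on 5p, those of protein synthesis and folding included RPL37 and CCT5, the genes with the most reads in the set. RPL37, a protein of the large ribosomal subunit encoded at chr5:40825262-40835222 (minus strand), had normalised counts of 44794, 43080, 27539 and 45213 in WT, 24183, 45062, 40762 and 38884 in SA, 15230, 17900, 6006 and 15440 in KO and 6657, 8607, 14092 and 18426 in HA. With LPS, counts were 47022, 48904, 28442 and 47322 in WT, 7004, 37443, 44482 and 45509 in SA, 13939, 16086, 10589 and 17071 in KO and 7463, 15481, 14983 and 18725 in HA. The KO and HA libraries were below the WT and SA libraries in unstimulated cells, but after LPS SA replicate 1, which is 1 of the 2 libraries that stood apart, was lower than all of them. The pseudogenes RPL37P2 on chromosome 11 and RPL37P6 on chromosome 8 were members as well, and reads of near-identical copies may be divided between them and RPL37, so their values are uncertain.

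CCT5, a subunit of the chaperonin that folds actin and tubulin, lies at chr5:10249929-10266389 (plus strand). Its counts were 10883, 10427, 12269 and 9945 in WT, 8820, 9791, 9626 and 9397 in SA, 4453, 4526, 4625 and 4136 in KO and 4121, 4018, 4346 and 3805 in HA. In LPS-treated cells they were 10816, 10309, 10211 and 10085 in WT, 9767, 9984, 9751 and 9429 in SA, 4422, 5032, 4728 and 4287 in KO and 3913, 4274, 4877 and 3948 in HA. All 16 KO and HA libraries lay between 3805 and 5032 and all 16 WT and SA libraries between 8820 and 12269. The ratio of KO and HA to WT and SA was 0.430. DNAJC21 (ratio 0.488), a J-domain protein of 60S subunit maturation whose upstream sequence is shown above, ZNF622 (0.532), which acts in the same process, and MRPS30 (0.472), of the mitochondrial ribosome, were also members.

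Metabolic enzymes on the arm included OXCT1 (chr5:41730065-41870425, minus strand), which activates ketone bodies to acetoacetyl-CoA in mitochondria. Its counts were 308, 332, 276 and 292 in WT, 200.2, 338, 389 and 256 in SA, 92.3, 147, 98.7 and 69 in KO and 102, 57.5, 100.2 and 74.1 in HA. The stimulated libraries had 326, 371, 239 and 306 in WT, 247, 319.8, 304 and 349 in SA, 145, 127, 115 and 118 in KO and 75.4, 83.9, 89.1 and 74.6 in HA. No KO or HA library reached the level of any WT or SA library. Its ratio was 0.323. SDHA, the flavoprotein of succinate dehydrogenase (0.496), MTRR, the reductase that keeps methionine synthase active (0.549), LPCAT1, which reacylates lysophosphatidylcholine (0.396), and PRKAA1, a catalytic subunit of the energy sensor AMPK (0.470), had ratios closer to the arm as a whole, whose 97 tested genes had a median ratio of 0.538. For SDHA after LPS the mean log2 difference was 0.13 for KO against SA, −0.10 for HA against SA and −1.16 for SA against WT.

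Cell cycle and nuclear members of the arm were SKP2, the F-box protein that marks p27 for degradation (ratio 0.317), FBXO4 (0.458), another F-box protein, TRIP13, an ATPase of the spindle checkpoint (0.401), NUP155, a nuclear pore protein (0.485), and MED10, a Mediator subunit (0.529). SKP2 overlaps NADK2 on the opposite strand, and because the strand setting of the counting is not given in the sources used here, reads of overlapping pairs cannot be told apart. NUP155 was fully apart in all libraries, whereas SKP2 and TRIP13 were not.

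Membrane, cytoskeletal and signalling members of the arm held its lowest ratios. RAI14 (chr5:34656328-34832612, plus strand), an actin-binding ankyrin-repeat protein, had counts of 326, 378, 342 and 314 in WT, 308, 359.8, 438 and 440.4 in SA, 65.4, 78.3, 87.8 and 95.7 in KO and 143, 109, 118 and 75 in HA. After LPS they were 332, 364, 428 and 372 in WT, 436, 316, 333 and 343 in SA, 107, 66.6, 92.7 and 79.1 in KO and 126, 115, 99 and 73.7 in HA. The highest KO or HA value, 143, was below the lowest WT or SA value, 308, and the ratio was 0.263. CCL28 (chr5:43376645-43412391, minus strand), a mucosal chemokine, had the lowest ratio of the 31 members on the arm, 0.255.

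CCL28 counts were 88.8, 65.3, 88.5 and 76.1 in WT, 93.8, 91.1, 89.6 and 69.8 in SA, 24.4, 24.4, 39.2 and 22.1 in KO and 33.5, 29.5, 28.3 and 23.8 in HA. With LPS, counts were 71.8, 58.1, 87.9 and 95.1 in WT, 189.9, 94.4, 67.3 and 64.1 in SA, 16.6, 19, 7.41 and 18 in KO and 10.4, 5.89, 18.8 and 33.4 in HA. The groups did not overlap in either condition. BASP1 (0.393), a membrane-bound protein of the cell cortex, and PDCD6 (0.480), a calcium-binding protein of membrane trafficking, were fully apart as well. NKD2 (0.334), which binds Dishevelled, DAB2 (0.381), an endocytic adaptor, GOLPH3 (0.432), a Golgi protein that binds phosphatidylinositol 4-phosphate, RETREG1 (0.459), a receptor for autophagy of the endoplasmic reticulum, and CLPTM1L (0.482), a membrane protein, completed this group. The other members on 5p were AC026740.1, FAM173B, C5orf22, AC025449.1, ANXA2R, TMEM267 and NNT-AS1, with ratios of 0.380 to 0.580.

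The 76 members elsewhere had a median ratio of 0.388 and a range of 0.126 to 0.561, and 14 of them were under 0.3, against 2 of the 31 on 5p. In 22 of the 76 all KO and HA libraries were below all WT and SA libraries, as in 9 of the 31 on the arm. Pairs whose starts were within 1 Mb were CCDC102A and ADGRG5 (30462 bases apart), ADGRG5 and KIFC3 (215574), SSBP4 and CERS1 (449681), KCNH2 and NOS3 (46056), and TBL1X and WWC3 (551934). The tested genes between SSBP4 and CERS1, 8 in number, had a median log2 difference of 0.11. CCDC102A, ADGRG5 and KIFC3 are 3 members of 1 stretch of chromosome 16, and the window of 30 tested genes that holds them (chr16:56682470-66552544) had a median difference of −0.31 with 22 genes lower, the lowest median among the 777 windows off 5p.

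Amino acid transporters and enzymes formed a first group outside 5p. SLC38A1 (chr12:46183063-46270017, minus strand), a sodium-coupled importer of glutamine and other neutral amino acids, had counts of 614, 618, 553 and 656 in WT, 463, 554, 691 and 399.9 in SA, 113, 128, 70.3 and 73.6 in KO and 130.1, 152, 74.3 and 114 in HA. In LPS-treated cells they were 608, 760.4, 469 and 605 in WT, 750.2, 706, 638 and 634 in SA, 228, 163, 97.6 and 95.5 in KO and 85.8, 128, 118 and 111 in HA. The KO and HA libraries lay between 70.3 and 228 and the WT and SA libraries between 399.9 and 760.4. Its ratio was 0.194, the third lowest of the set.

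SLC7A11 (chr4:138164097-138242349, minus strand), the cystine and glutamate exchanger that feeds glutathione synthesis, had counts of 743, 1086, 760.5 and 549.6 in WT, 542, 877, 1097 and 522 in SA, 201.3, 329, 270.3 and 180.3 in KO and 163, 373, 450.5 and 227 in HA. The stimulated libraries had 851, 1132, 939 and 602 in WT, 1177, 1165, 1045 and 611 in SA, 228, 371, 238 and 184 in KO and 210, 464, 287 and 239 in HA. Its libraries varied within every line, yet the highest KO or HA value, 464, stayed below the lowest WT or SA value, 522. BCAT1, the cytosolic branched-chain aminotransferase, had a ratio of 0.523 and overlapped between the groups.

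Lipid-related members were led by LPL (chr8:19901717-19967259, plus strand), the lipase that frees fatty acids from circulating triglyceride. Its counts were 229, 185, 287 and 241 in WT, 235, 240.1, 217 and 203 in SA, 108, 104, 63.5 and 67.2 in KO and 60, 57.5, 77.8 and 76.7 in HA. After LPS they were 254, 257, 229 and 234 in WT, 310.3, 207, 218 and 219.7 in SA, 91.3, 67.8, 92.7 and 54.8 in KO and 51, 63.3, 83.2 and 65.2 in HA. The KO and HA libraries, at 51.0 to 108, did not overlap with the WT and SA libraries, at 185 to 310.

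ALOX5AP, which presents arachidonic acid to 5-lipoxygenase, had a ratio of 0.345, and STAR, which carries cholesterol into mitochondria, 0.447. CERS1 (0.441) makes ceramide, SPNS2 (0.459) exports sphingosine 1-phosphate, PITPNC1 (0.447) transfers phosphatidylinositol, and COQ3 (0.471) is a methyltransferase of coenzyme Q synthesis. STAR overlaps ASH2L and SPNS2 overlaps MYBBP1A, in each case on the opposite strand.

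Regulators of transcription and RNA held the lowest ratio of the set. ZNF462 (chr9:106863166-107013634, plus strand), a zinc finger protein, had counts of 57.3, 51.1, 47 and 59.5 in WT, 31.3, 65.2, 81.4 and 55.6 in SA, 3.85, 8.47, 6.76 and 10.1 in KO and 15.2, 6.39, 7.08 and 13.2 in HA. With LPS, counts were 53.9, 72, 41 and 60.2 in WT, 90.3, 74.5, 97.5 and 58.1 in SA, 3.56, 10.7, 3.71 and 4.7 in KO and 2.32, 6.62, 17.8 and 5.14 in HA. No KO or HA library exceeded 17.8 and no WT or SA library was below 31.3, and the values in KO and HA rest on few reads.

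ID1 and ID3 encode helix-loop-helix proteins without a DNA-binding domain that hold E proteins away from DNA, and are classic targets of BMP signalling. ID3 (chr1:23557926-23559501, minus strand), whose upstream bases are printed above, had counts of 130.3, 146, 17.9 and 150.5 in WT, 45.7, 122, 146 and 39.6 in SA, 35.9, 61.4, 20.3 and 46.9 in KO and 0, 3.99, 4.72 and 22.9 in HA. In LPS-treated cells they were 94.3, 92.8, 29.3 and 95.9 in WT, 1.16, 84.8, 87.1 and 90.6 in SA, 19, 11.9, 0 and 23.5 in KO and 0, 20.6, 9.9 and 19.7 in HA. In unstimulated cells WT replicate 3 (17.9) and SA replicates 1 and 4 (45.7 and 39.6) were below KO libraries at 61.4 and 46.9. After LPS SA replicate 1 (1.16) was as low as KO and HA libraries. The groups thus overlapped in both conditions. ID1 (chr20:31605283-31606515, plus strand) had counts of 67.3, 109, 56 and 91 in WT, 75.1, 93.7, 109 and 54.7 in SA, 39.8, 46.6, 23 and 39.6 in KO and 28.5, 23.9, 33 and 23.8 in HA. The stimulated libraries had 71.8, 90.2, 28.1 and 48.3 in WT, 9.26, 80.9, 84.8 and 64.1 in SA, 2.37, 27.4, 7.41 and 12.5 in KO and 32.5, 13.2, 13.9 and 14.6 in HA. Its groups were apart in unstimulated cells and overlapped after LPS.

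MSI2 (chr17:57255851-57684689, plus strand), an RNA-binding protein of haematopoietic stem cells and leukaemia, had counts of 129, 152, 134 and 154 in WT, 106, 129, 175 and 145 in SA, 41, 29.6, 27 and 39.6 in KO and 20.3, 35.9, 43.6 and 43.2 in HA. After LPS they were 174, 151, 130.1 and 122 in WT, 116, 157, 157 and 136 in SA, 51, 39.2, 28.4 and 50.1 in KO and 20.9, 58.9, 28.7 and 42.9 in HA. The highest KO or HA value was 58.9 and the lowest WT or SA value 106. FOXO1 (0.418), FOXC1 (0.503) and NR2F2 (0.561) are DNA-binding regulators, TBL1X (0.340) belongs to a corepressor complex, HMGN5 (0.380) binds nucleosomes, and TAF9B (0.319) is a TFIID-related factor. FOXO1, TBL1X and HMGN5 were fully apart in all libraries, and FOXC1, NR2F2 and TAF9B were not.

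Receptors, channels and signalling proteins included GABBR2 (chr9:98288109-98708935, minus strand), a subunit of the GABA-B receptor, with counts of 3132, 3337, 4258 and 2836 in WT, 3829, 3846, 3370 and 3684 in SA, 2049, 1857, 2319 and 1622 in KO and 1714, 2070, 1549 and 1235 in HA. With LPS, counts were 3326, 3428, 3895 and 2978 in WT, 6253, 3394, 3468 and 2693 in SA, 1932, 1870, 2428 and 1512 in KO and 2095, 1659, 1488 and 1165 in HA. All KO and HA libraries, the highest at 2428, were below all WT and SA libraries, the lowest at 2693. PTPRF, a receptor tyrosine phosphatase (0.441), RGS2, which quenches Gq signalling (0.334), WLS, the carrier of Wnt proteins (0.370), GPC6, a glypican (0.218), KCNH2, a potassium channel (0.455), NOS3, nitric oxide synthase (0.524), and CACNA2D3, a calcium channel subunit (0.269), were in this group. Among them KCNH2 was fully apart in all libraries.

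TRHDE (chr12:72087266-72670758, plus strand), a membrane peptidase that cleaves thyrotropin-releasing hormone, had the second lowest ratio, 0.188. TRHDE overlaps TRHDE-AS1 on the opposite strand. Its counts were 73, 72, 139 and 113 in WT, 127, 71.4, 87.1 and 61.3 in SA, 3.85, 16.9, 23 and 15.6 in KO and 33.5, 19.2, 25.9 and 14.1 in HA. In LPS-treated cells they were 89.8, 101, 107 and 111 in WT, 343, 91.8, 80.1 and 76.1 in SA, 14.2, 7.14, 18.5 and 12.5 in KO and 33.6, 30.2, 35.6 and 24 in HA. SA + LPS replicate 1 was far above the other 3 libraries of its group, and the groups stayed apart with or without it. BEX3 (chrX:103376395-103378164, plus strand), an adaptor of the p75 neurotrophin receptor, had a ratio of 0.354, with libraries of 1330 to 2516 in unstimulated WT and SA and of 335 to 958 in KO and HA. After LPS its groups overlapped, at 709.7 to 2617 in WT and SA and 436 to 1020 in KO and HA, where the lowest value of the former was SA + LPS replicate 1.

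Immune members were MS4A6A, CD1D, CXCL13 and GAPT. MS4A6A (chr11:60172015-60184666, minus strand), a tetraspan protein of monocytes and macrophages, had counts of 673, 582, 318 and 562 in WT, 328, 468, 711 and 297 in SA, 159, 206, 63.5 and 120.5 in KO and 140.3, 132, 144 and 159 in HA. The stimulated libraries had 614, 650.3, 338 and 487 in WT, 321, 603, 635 and 526 in SA, 164, 148, 93.9 and 114 in KO and 76.6, 182, 115 and 187 in HA. Its KO and HA libraries reached at most 206 and its WT and SA libraries were at least 297. CD1D, which presents lipid antigens (ratio 0.382), CXCL13, a B-cell chemokine (0.285), and GAPT (0.269) had fewer reads and overlapped in at least 1 condition.

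**Figure D4:**
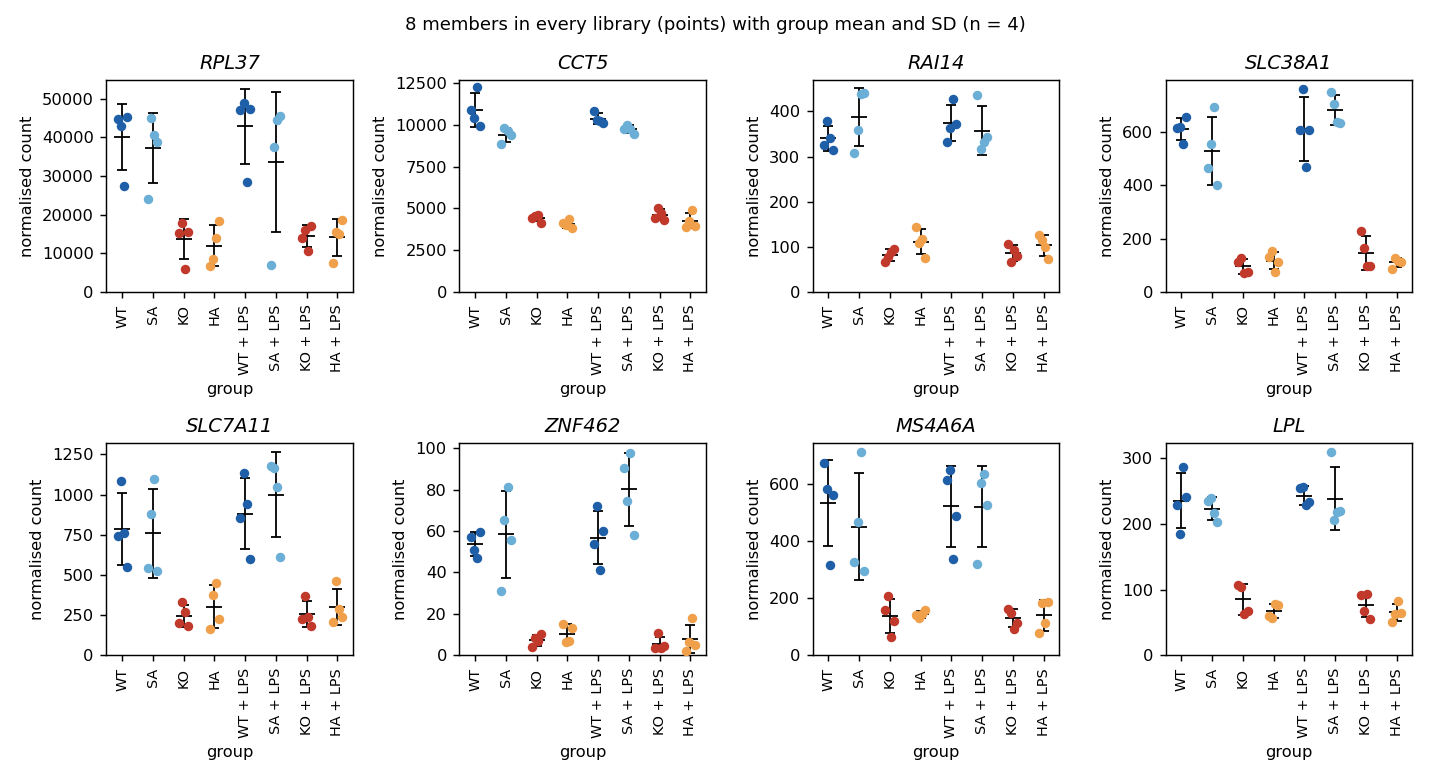
Normalised counts (vertical axis, linear, from 0) of 8 members in the 8 groups, with 1 point per library and the group mean and SD (n = 4). RPL37, CCT5 and RAI14 lie on 5p and the other 5 elsewhere, and in all but RPL37, where SA + LPS replicate 1 is low, the KO and HA points are below all WT and SA points.

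Adhesion, cytoskeletal and remaining members off 5p followed with smaller counts. DSG2, a desmosomal cadherin (ratio 0.330), PXN, a focal adhesion scaffold (0.309), FHL1, a LIM-domain protein (0.401), KANK1, an adhesion-linked regulator of actin (0.428), SSPN, of the dystrophin complex (0.387), MLPH, which links melanosomes to myosin (0.264), and KIFC3, a minus-end kinesin (0.454), belong here. LAPTM4B, a lysosomal membrane protein (0.478), and CKB, creatine kinase B (0.393), had higher counts and were fully apart. GBGT1, a glycosyltransferase of the globoside series, had a ratio of 0.239. PXN overlaps its antisense RNA, and RNU5F-1 (0.294) is 1 copy of a multicopy small nuclear RNA, so both values are uncertain. Genes in this and the preceding paragraphs beyond the highest counts and lowest ratios were named for their role after their values were seen.

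The members closest to the limit were on 5p. The largest of the 8 ratios was 0.593 for C5orf22, 0.596 for NNT-AS1 and 0.598 for MTRR, just inside 0.6. It was 0.6002 for HNMT, 0.6017 for AC116351.1 and 0.6021 for MRPL36, just outside, and the last 2 of these lie on 5p. In all, 36 tested genes of the arm met the ratio limit, the 31 members and 5 genes with a mean below 30.

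The rule used the means of all 8 groups, but it set no bound on the LPS response within a line, on KO against HA or on SA against WT. These 8 comparisons were tested with limma over 12406 genes, with Benjamini-Hochberg adjustment over all of them and a limit of 0.01. All 107 members passed the low-count filter of a mean of at least 10. In none of the 8 comparisons did a member pass. The share of all tested genes that passed was 0.25% for the LPS response in WT, 0.492% in SA, 0.58% in KO and 0.403% in HA, and a count of 0 among 107 does not set the members apart from these shares. At an unadjusted p under 0.05 the members numbered 1 in WT (1.61% of tested genes), 2 in SA (9.85%), 4 in KO (5.42%) and 1 in HA (4.76%).

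The LPS responses of the members went in both directions in every line. They ran from −0.69 to 0.47 in WT, −1.20 to 0.79 in SA, −2.13 to 0.89 in KO and −0.96 to 1.11 in HA on the log2 scale, and 49, 59, 60 and 62 of the 107 were above 0. The median was −0.02 in WT, 0.03 in SA, 0.04 in KO and 0.06 in HA, beside −0.01, −0.02, 0.02 and 0.00 over all tested genes. The stimulus itself was seen in the same libraries, since CCL4, a chemokine induced by LPS, rose by 4.65 in WT (SE 0.53, limma adjusted p = 2.33e-06), 4.72 in SA (1.19e-06), 4.58 in KO (2.08e-06) and 5.01 in HA (6.44e-07). The SE of a response was 0.093 to 1.1 over the members (median 0.37). Because the ratios had to hold before and after LPS, the rule favoured members whose lines responded alike, and differences in LPS response between lines are not tested here.

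Among single members, ID1 had the smallest p in KO. The LPS difference was −1.86 (SE 0.55, limma adjusted p = 1.60e-01), on counts of 39.8, 46.6, 23 and 39.6 before and 2.37, 27.4, 7.41 and 12.5 after LPS, and it did not pass the limit. Over the alternatives tried the adjusted p for it ran from 1.85e-02 to 9.18e-01. CCL28 had a difference of −0.85 in KO (SE 0.37, limma adjusted p = 7.62e-01) and −0.96 in HA (SE 0.37, limma adjusted p = 6.90e-01). FOXO1 had −0.84 in SA (SE 0.27, limma adjusted p = 2.20e-01), and FOXC1 had 0.47 in WT, 0.51 in KO and 0.35 in HA (SE 0.18 in each), with adjusted p of 3.38e-01 or more.

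KO and HA both lack ACLY activity but HA carries the protein. The rule kept only genes low in both lines, so a gene restored by the inactive protein could not be a member. The comparison therefore cannot say whether the protein without catalysis acts, and describes only how KO and HA differ within the set. No member was called by limma, in unstimulated cells (0.226% of tested genes called) or after LPS (0.00806%). At an unadjusted p under 0.05 there were 16 members, or 15%, beside 10.4% of tested genes unstimulated, and 10 members, or 9.35%, beside 10.5% after LPS. The median over members was 0.19 unstimulated and 0.16 after LPS on the shared scale and −0.05 and −0.09 on the deposited scale, on which the median of all tested genes was −0.24 in both conditions. The direction of this median thus depends on the scale, whereas relative to the median of all tested genes the members lay higher on both. The rule was applied on the deposited scale, which multiplies unstimulated KO by 0.881 to 0.895 and HA by 1.04 to 1.06. An equal limit there admits genes higher in KO than in HA on the shared scale. How much of the offset comes from this selection was not tested.

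PCED1B-AS1, a long non-coding RNA, had the smallest p after LPS. It was lower in KO than in HA by −1.20 (SE 0.27, limma adjusted p = 5.63e-02), above the limit, and it passed on the deposited scale (−1.44, adjusted p = 5.91e-03) and without the 2 libraries that stood apart (−1.20, adjusted p = 8.54e-03). In unstimulated cells the smallest p belonged to STAR, at −0.66 (SE 0.21, limma adjusted p = 2.33e-01). ID3 had the largest difference, 2.94 (SE 1.14, limma adjusted p = 3.88e-01), with counts of 35.9, 61.4, 20.3 and 46.9 in KO and 0, 3.99, 4.72 and 22.9 in HA. OXCT1 was at 0.63 (SE 0.21) and CXCL13 at 1.64 (SE 0.58) after LPS, with adjusted p of 2.49e-01 and 2.79e-01 by limma. A p above the limit does not show that KO and HA have the same level.

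SA and WT both have ACLY activity, and SA lacks the serine 455 site. The rule kept only genes higher in both of these lines than in KO and HA. A gene that needs the site could thus not be a member. The comparison cannot say whether the site matters, and describes only how SA and WT differ within the set. By limma, 0 of 107 members and 0% of tested genes were called, unstimulated and after LPS. At an unadjusted p under 0.05 there were 5 members unstimulated (3.59% of tested genes) and 1 after LPS (5.21% of tested genes). The median over members was −0.19 unstimulated and −0.11 after LPS on the shared scale, with 25 and 32 of 107 above 0, beside −0.01 and −0.02 over all tested genes. On the deposited scale it was 0.07 and 0.16, beside 0.24 and 0.25 over all tested genes, so the sign depends on the scale. Relative to all tested genes the members lay lower on both. The rule was applied on the deposited scale, which multiplies unstimulated SA by 1.13 to 1.14 and WT by 0.946 to 0.95. An equal limit there admits genes lower in SA than in WT on the shared scale. The part of this selection in the offset was not tested. MRPS30 had the smallest p unstimulated, with a difference of −0.48 (SE 0.18, limma adjusted p = 9.98e-01).

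**Figure D5:**
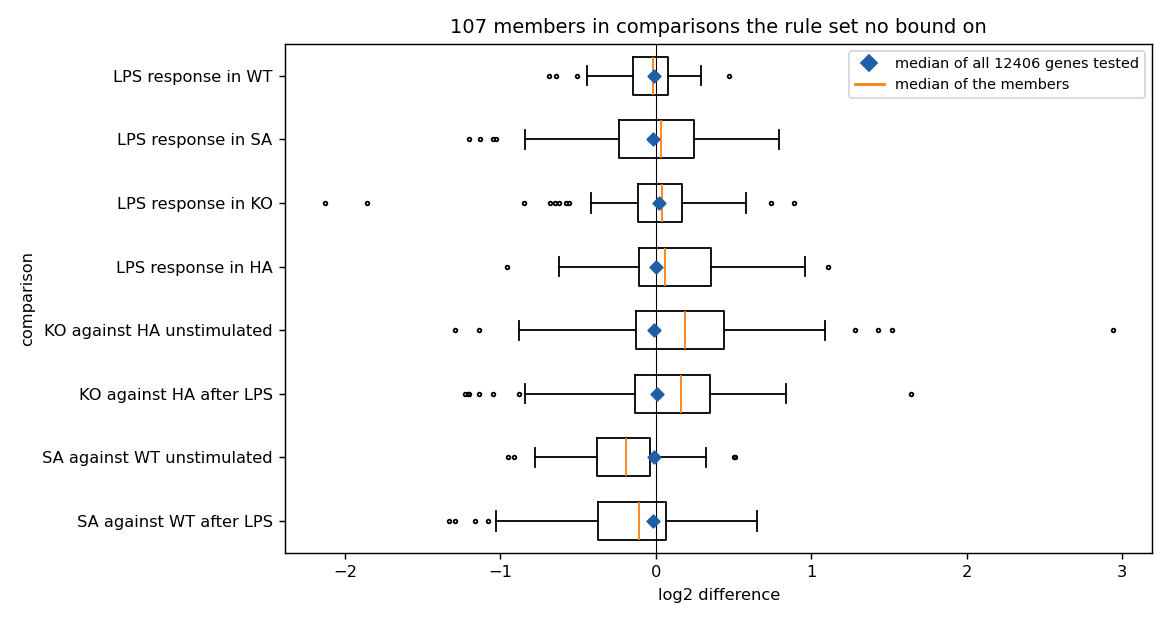
Box plots (median, quartiles, whiskers to the last value within 1.5 quartile ranges of the box, other values as circles) of the log2 difference (horizontal axis) of the 107 members in the 8 comparisons on which the rule set no bound (vertical axis), with the median of all 12406 tested genes as a blue diamond. The boxes lie close to 0, with medians between −0.19 for SA against WT unstimulated and 0.19 for KO against HA unstimulated.

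Within groups, members moved together only loosely. After removal of the group means, the median correlation over the 32 libraries was 0.14 among pairs of 5p members, 0.13 among pairs of the other members and 0.14 between the 2 sets, beside −0.00 among tested genes sampled at regular steps. The closest pairs, PTPRF with SKP2, BCAT1 with AC026904.2 and GOLPH3 with SKP2, reached 0.97. Without the 2 libraries that stood apart the medians were 0.18, 0.12 and 0.13, and these pairs were at 0.97, 0.90 and 0.95. These points share libraries and depth, and the values are descriptions.

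Monocyte markers were present in every library. All 12 markers listed had a mean of at least 10, and their summed normalised count was 13119 to 16232 in WT and SA libraries and 25060 to 44001 in KO and HA libraries. LYZ and TYROBP made up 76.6% of the sum, and LYZ, the lysozyme of monocytes, had counts of 1913 to 6994 in WT and SA libraries and 10660 to 33230 in KO and HA. Of the 12 markers 9 had a higher and 3 a lower mean log2 level in KO and HA. Only LYZ was apart in all libraries. CD14 differed by 0.10 on average, but KO and HA did not go together. Unstimulated CD14 was 240.6 to 314.1 in KO and 54.67 to 130.3 in the other lines, without overlap. After LPS it was 40.33 to 86.14 in KO and 34.2 to 59.8 in WT and SA, and every HA library was below 34.2. In bulk RNA a different make-up of cells and a different amount of RNA per cell cannot be told apart. Of other cell types, NKG7 alone among the 6 T and NK markers had a mean of at least 10, and these markers summed to 115 to 245 in WT and SA and 139 to 356 in KO and HA. PAX5, a B-cell factor, was at 109.5 to 152 in KO and 16.5 to 70.5 in the other lines unstimulated. After LPS PAX5 was at 64.3 to 212 in KO and 15.2 to 60.3 in the other lines, and thus higher in KO but not in HA. Of 5 B-cell markers listed 2 had a mean of at least 10, and PAX5 does not stand for the list. CD3E, CD3G, ALAS2, KRT19, COL1A2, COL3A1, STMN2 and GFAP had no read in any library, but other markers of their lists were read. Among epithelial, stromal and neural markers, those read in at least 24 libraries were CDH1, COL1A1, PDGFRB, DCN and SNAP25. On the log2 scale DCN (−2.5), COL1A1 (−0.96) and SNAP25 (−0.52) were lower in KO and HA. PDGFRB (0.36) and CDH1 (0.5) were higher. Each of them had a mean below 10, so these differences rest on few reads. The part of these marker levels in the difference of the members was not tested.

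Of the genes set aside by name, AKR1C2, BEX1 and VAT1L met the numerical rule. None of the members belonged to the pathway lists set up around ACLY. Members were 1.03% of the placed genes that could enter the set. In lists this short, a count of 0 does not set the members apart from that share. Of 24 tested genes of acetyl-CoA supply and use, 0 passed in any comparison by limma, and of 24 proliferation genes, 0. Of 26 tested genes of fatty acid and sterol synthesis only FDFT1, squalene synthase, was called, higher in HA than in SA after LPS by 1.06 (SE 0.24, limma adjusted p = 6.72e-03, 1.06% of tested genes called higher). Of 28 histone acetylation genes only HDAC6 was called, higher in HA than in WT by 1.08 (SE 0.24, limma adjusted p = 4.93e-03, 1.42% of tested genes called higher) and after LPS by 1.06 (adjusted p = 7.09e-03, 1.16% called higher). Of 11 tested genes of a list of LPS-induced genes, limma called 2 higher with LPS in WT (0.25% of tested genes), 5 in SA (0.468%), 5 in KO (0.508%) and 4 in HA (0.387%). They were CCL3 and CCL4 in each line, TNF in all but WT, IL1B in SA and HA, ICAM1 in SA and KO, and PTGS2 in KO. Between lines, 3 genes of this list were called higher in KO than in WT unstimulated (1.80% of tested genes), CCL4 by 3.05, CCL3 by 2.57 and TNF by 0.67, and 4 higher in KO than in SA (1.61%), these and IL1B. After LPS 4 were higher in KO than in WT (2.14%), CCL3 by 3.09, CCL4 by 2.98, IL1B by 1.93 and TNF by 1.06, and 3 higher in KO than in SA (1.77%), CCL4, CCL3 and TNF. HA exceeded WT after LPS for CCL3 (2.11) and TNF (0.79) and had no call of this list against WT unstimulated or against SA, where 0.725% of tested genes were higher in HA unstimulated.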

How the data were processed

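The deposited tables, 1 for each of the 8 groups, hold normalised counts per gene, which the authors made from single-end QuantSeq 3′ mRNA-Seq FWD reads. Per the labels and the study's methods, bcl2fastq, Bbduk trimming, STAR alignment to GRCh38, HTSeq-count and DESeq2 normalisation were used; versions and the strand setting of the counting are not given in the sources used here. DESeq2 was used by the authors only. Values in every library were whole multiples of what 1 read is worth (tolerance 0.05 reads; 100.000% of values), so reads were recovered and rescaled with median-of-ratios factors over all 32 libraries. The 92 spike-in entries, with 1 read in all, were left out. Gene positions are from GENCODE 44 on GRCh38, where 12297 of 12406 tested genes were placed, and upstream sequences from RefSeq.

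Genes with a deposited mean of at least 10 entered a fit with limma 3.58.1 under R 4.3.3 (trend, 1 mean per group, log2 of the value plus 1, Benjamini-Hochberg adjusted p limit 0.01). The code was first run on simulated counts with the same dispersion for all genes and no library standing apart. That run does not measure what the fit can detect in these libraries. Other steps used Python 3.11.15, pandas 2.3.3, NumPy 2.4.6 and matplotlib 3.10.9. The members, gene lists and tests were chosen with earlier results of these data known. The rule for named genes took the 12 members with the highest mean, the 12 with the lowest ratio, up to 10 called per comparison, the 3 members just inside and 3 genes just outside the ratio limit, members starting within 1 Mb of another, ACLY, and list genes that were called; other members were named for their role after their values were seen. The planned count models on the recovered reads were not run. No deposited column of sample values was left unused. Values that rest on some genes, among them the summed B-cell markers, are not reported here.

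For the pairing, same-numbered libraries of the 2 groups compared were correlated as deviations from their group means. All correlations exceeded 0.1 for the LPS response in WT (0.263 to 0.680) and that in KO (0.124 to 0.675), and not for the other 6 comparisons. The labels give the numbers and do not say what they share.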

Additional observations from a re-analysis of the deposited data

Results flagged for a closer look

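The 192 groups of 4 libraries looked at were formed from the members shown by library, BEX3, BASP1, PDCD6, ACLY and the library medians. In each group the highest or lowest value was set against the other 3 by Dixon's criterion. It stood apart in 23, or 12%, where chance gives about 1 in 20. The explanations were not weighed.

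The library SA + LPS replicate 1 accounts for 7 of the 23. In normalised counts it was high for TRHDE (343 against 76.1 to 91.8 in the other 3), BASP1 (10145 against 3769 to 4276), LPL (310 against 207 to 219.7) and ACLY (329 against 95.8 to 110). It was low for ID3 (1.16 against 84.8 to 90.6), and its median log2 deviation was low for members on 5p (0.10 against 0.63 to 0.70) and members elsewhere (0.24 against 0.80 to 0.83). KO replicate 3, the other library that stood apart, was high for CCL28 (39.2 against 22.1 to 24.4) and low in the median of members elsewhere (−1.18 against −0.49 to −0.40).

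WT replicate 3 was low for ID3 (17.9 against 130.3 to 150.5) and RPL37 (27539 against 43080 to 45213), and low in the median of the 5p tested genes (0.42 against 0.52 to 0.53). WT + LPS replicate 3 was low for ID3 (29.3 against 92.8 to 95.9), RPL37 (28442 against 47022 to 48904) and BEX3 (1366 against 2472 to 2568). HA + LPS replicate 1 was high for ID1 (32.5 against 13.2 to 14.6) and BASP1 (1874 against 1474 to 1533) and for the median of 5p genes outside the set (−0.23 against −0.38 to −0.36).

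The remaining values were ZNF462 in KO + LPS replicate 2 (10.7 against 3.56 to 4.70), BASP1 in WT + LPS replicate 4 (3537 against 4099 to 4179), PDCD6 in WT + LPS replicate 2 (2345 against 2072 to 2101) and in KO + LPS replicate 1 (861 against 1016 to 1023), and the median of 5p genes outside the set in WT replicate 1 (0.32 against 0.37 in the other 3).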

How the results depend on the processing

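Over the 8 comparisons on which the rule set no bound, 118 of 120 alternative counts of members called by limma were 0. The count was 1, PCED1B-AS1, for KO against HA after LPS on the deposited scale and without the 2 libraries farthest from their groups, an alternative chosen after seeing the data. Its difference was −1.44 (adjusted p = 5.91e-03) and −1.20 (8.54e-03), beside −1.20 (5.63e-02). On the deposited scale 60 genes in all were called there, beside 1. Of 390 alternative values for 26 gene results, 387 kept their direction and side of the limit; CCT5 in SA against WT unstimulated turned from −0.21 to 0.05 on the deposited scale, which lifts SA over WT for all genes.

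The rule returned 48 genes at a ratio limit of 0.5, 228 at 0.7 and 154 with a mean of at least 10. On the shared scale it returned 87 genes. Of these 87, 72 were members. On 5p lay 20 of the 87, and 16 of these 20 were members. Without each replicate number it returned 71 to 106, the lowest without replicate 3 (68 of the 71 were members). Without the 2 farthest libraries it returned 96 (91 members, 29 on 5p). On the deposited scale the median difference of 5p genes outside the set was −0.88, beside −0.78.

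With the replicate number as a block, 0 members were called by limma in all 8 comparisons, also where the numbers paired the libraries. The planned edgeR and DESeq2 alternatives on the recovered reads were not run, so the calls rest on limma alone. The standard error of a member ranged from 0.093 to 1.1 (median 0.37), and low-count members such as ZNF462 rest on few reads.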
